A study of Mus musculus with 12 samples.

Results

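The 10 genes described here carry out or direct de novo lipogenesis in mouse liver, the making of fatty acids from carbohydrate carbon. They were chosen by name as the enzymes of the pathway with their main transcription factors, and the rule used no measured value, although earlier results of these data were known when they were chosen. All 10 were found among the 35275 genes of the table, and all 10 were abundant enough to be tested. They are Srebf1 and Mlxipl (transcription factors), Acly and Me1 (supply of acetyl-CoA and NADPH), Acaca and Acacb (acetyl-CoA carboxylases), Fasn (fatty acid synthase), Elovl6 (elongase), Scd1 (desaturase) and Thrsp (a helper of the pathway). RNA-seq of whole liver was available from 12 mice, 3 in each of 4 groups: wild-type (WT) mice fed chow, Pctp-/- mice fed chow, WT mice fed a methionine- and choline-deficient (MCD) diet, and Pctp-/- mice fed the MCD diet. Pctp-/- mice lack PC-TP, a phosphatidylcholine transfer protein, in every tissue, so the loss is not limited to hepatocytes. The MCD diet withholds the precursors of phosphatidylcholine and is used to produce fatty, inflamed livers. The strain, the age, the time on the diet and the hours since the last meal are not given for these mice in the sources used here, and lipogenic genes are known to follow feeding.

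In de novo lipogenesis, citrate leaves the mitochondrion and is split by ATP citrate lyase to acetyl-CoA, which acetyl-CoA carboxylase turns into malonyl-CoA. Fatty acid synthase builds palmitate from malonyl-CoA with NADPH, ELOVL6 lengthens it, and stearoyl-CoA desaturase 1 places a double bond in the product. In liver the genes are switched on by SREBP-1c, the product of Srebf1 that answers to insulin, and by ChREBP, the product of Mlxipl that answers to glucose metabolites. NF-Y is a general factor that binds CCAAT letters beside SREBP-1 in several of these promoters.

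Promoter windows of 4 members are shown as examples, chosen by their direction on the MCD diet in WT mice, as given further on: Fasn and Acacb fell, while Acaca and Elovl6 rose. With members chosen in this way, motifs that differ between the windows are a description only. Each window runs from 250 bases before to 50 bases after a transcript start of the RefSeq annotation of GRCm38.p6 and is printed 5′ to 3′ on the strand of the gene. Capitals mark letters of the NF-Y box (CCAAT on either strand), the only one found in these windows of the 4 motifs searched on both strands, the others being the sterol response element (TCACNCCAC), the E-box (CACGTG) and the GC box (GGGCGG). The Fasn window, chr11:120824498-120824797 on the minus strand, held CCAAT letters at 3 places, a pair of which overlap. The Acacb window, chr5:114165268-114165567 on the plus strand, held 1. The Acaca window, chr11:84195188-84195487, and the Elovl6 window, chr3:129532136-129532435, both on the plus strand, held none.
Fasn: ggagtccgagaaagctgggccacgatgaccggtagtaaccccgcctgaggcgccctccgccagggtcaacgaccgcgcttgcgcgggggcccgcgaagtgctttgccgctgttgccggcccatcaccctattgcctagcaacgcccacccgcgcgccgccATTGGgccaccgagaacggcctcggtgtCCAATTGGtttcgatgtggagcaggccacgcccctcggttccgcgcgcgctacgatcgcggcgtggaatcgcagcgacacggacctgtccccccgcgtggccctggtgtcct
Acacb: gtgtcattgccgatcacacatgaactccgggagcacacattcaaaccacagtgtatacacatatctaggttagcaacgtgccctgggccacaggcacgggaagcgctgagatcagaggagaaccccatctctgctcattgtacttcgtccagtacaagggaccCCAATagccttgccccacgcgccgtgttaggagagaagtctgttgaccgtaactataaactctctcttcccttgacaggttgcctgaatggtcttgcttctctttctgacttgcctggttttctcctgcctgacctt
Acaca: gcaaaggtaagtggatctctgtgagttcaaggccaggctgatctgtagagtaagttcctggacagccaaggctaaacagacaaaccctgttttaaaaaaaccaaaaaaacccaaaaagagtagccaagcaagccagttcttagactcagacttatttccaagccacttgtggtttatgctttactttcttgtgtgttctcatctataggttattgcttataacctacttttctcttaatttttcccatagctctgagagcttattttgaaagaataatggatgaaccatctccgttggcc
Elovl6: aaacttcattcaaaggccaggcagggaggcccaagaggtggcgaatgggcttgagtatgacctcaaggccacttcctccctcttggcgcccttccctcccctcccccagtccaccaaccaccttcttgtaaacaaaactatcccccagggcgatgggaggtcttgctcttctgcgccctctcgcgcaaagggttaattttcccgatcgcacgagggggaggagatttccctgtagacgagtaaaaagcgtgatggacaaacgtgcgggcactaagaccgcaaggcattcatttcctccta

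Over all 32851 promoter windows of the same length, 37.4% held the NF-Y box, 35.7% the GC box, 7.15% the E-box and 1.24% the sterol response element. For 9 members the table gave 13 windows, of which 8 held the NF-Y box and 5 the GC box, and Scd1 had none in the table. The NF-Y box was also found in windows of Acly and Me1, which did not pass the test in WT mice. Mlxipl had the only window with a sterol response element, chr5:135106641-135106940, where the letters began 136 bases before the start, and another window, chr5:135089640-135089939, with the only E-box, 98 bases before the start. A match describes letters and is not a binding site. The Acaca and Acacb windows lie inside the annotated genes, downstream of the first annotated start, so other starts of these genes are not covered. The Mlxipl window with the sterol response element, the Me1 window with the NF-Y box and some Srebf1 windows also lie inside their genes.

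Expression was given as FPKM, the fragments mapped to a gene per kilobase of its length, scaled to the depth of the library. The libraries held 30486576 to 55179468 uniquely mapped reads. The targeted gene Pctp on chow averaged 2.04 ± 0.746 FPKM in WT and 0.420 ± 0.127 in Pctp-/- mice, and on MCD 5.54 ± 2.18 and 0.259 ± 0.0909 (SD, n = 3). Pctp values did not overlap between the genotypes on either diet, though the difference on chow missed the threshold (adjusted p = 0.15 from limma with Benjamini-Hochberg adjustment; 0.000624 on MCD). Of 9 sequencing and mapping measures, 8 separated the chow from the MCD libraries; uniquely mapped reads made up 77.59 to 79.41% of reads on chow and 85.66 to 87.55% on MCD. The diet and these library measures therefore cannot be told apart. Replicate 1 of the Pctp-/- mice on chow stood apart in the lipogenic genes and in its share of spliced reads, 40.02% against at most 37.31% in the other chow libraries. Several results that include it are also given without it. Of the hepatocyte markers, 7 of 8 were matched and all were high, with albumin (Alb) between 26290 and 61590 FPKM. Adipocytes also express lipogenic genes strongly, but their marker Lep was listed at 0 in all 12 libraries, Adipoq did not exceed 0.0651 FPKM, and the 6 adipocyte markers summed to at most 0.39 FPKM in any library.

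On the MCD diet most of the pathway was lower than on chow, and by far the largest difference was in Scd1, which went from the most abundant of the 10 genes to the least. In WT mice 6 members were lower (Scd1, Srebf1, Fasn, Acacb, Thrsp and Mlxipl), 2 were higher (Acaca and Elovl6), and Acly and Me1 did not pass the test. In Pctp-/- mice 6 were lower (Scd1, Fasn, Srebf1, Acacb, Acly and Me1), 0 were higher, and Mlxipl, Acaca, Elovl6 and Thrsp did not pass. Scd1, Fasn, Acacb and Srebf1 were thus lower in both genotypes. Among all 12466 genes tested, 22.5% were called lower and 34.5% higher in WT mice, and 24.4% lower and 26.0% higher in Pctp-/- mice. The median log2 difference between MCD and chow was -1.20 over the members and 0.11 over all genes in WT mice, and -0.80 and 0.04 in Pctp-/- mice. Calls were made at an adjusted p under 0.05 from limma on log2(FPKM + 1) with Benjamini-Hochberg adjustment over all genes tested, and each log2 difference below is on that scale, which compresses the change of a gene at low FPKM. The shift of 0.11 in WT mice depended on the scaling between libraries: 4300 genes were called higher and 2810 lower as deposited, whereas median-of-ratios scaling gave 3546 higher and 3527 lower. No member called in either genotype changed direction or lost its call under the 3 other scalings tried.

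**Figure D1:**
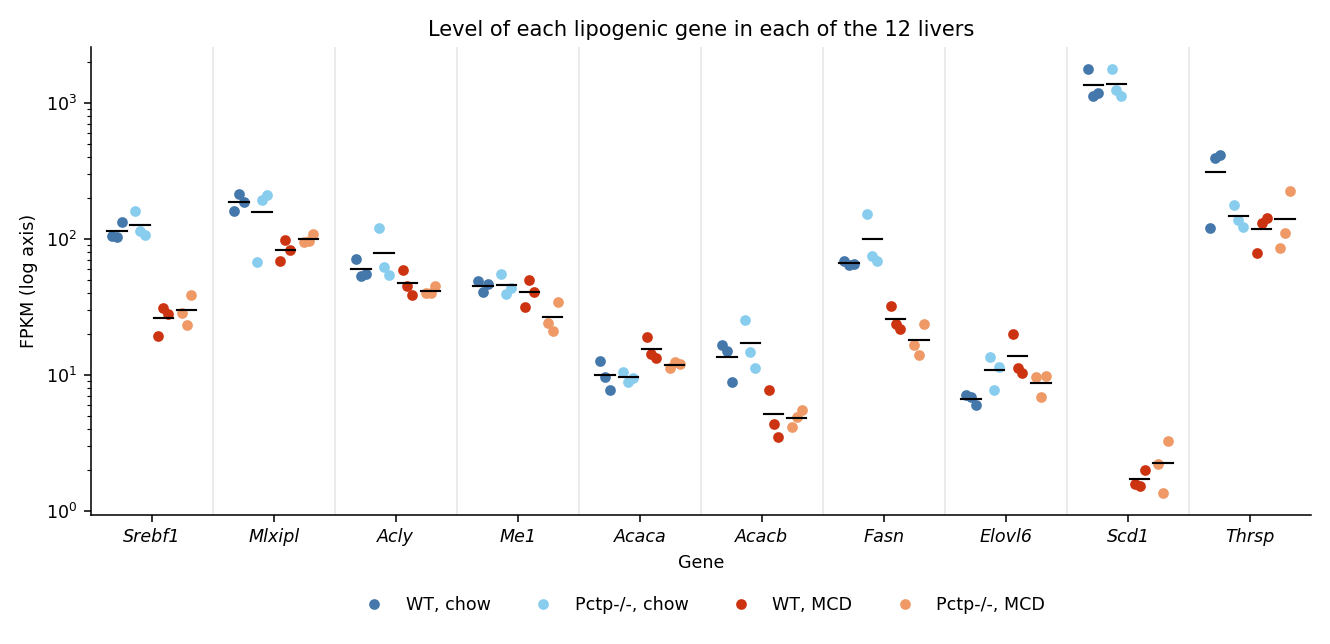
FPKM on a log axis for each of the 10 lipogenic genes (x axis), with 1 point per mouse, colours for the 4 groups of 3 mice and a black line at each group mean. The Scd1 points lie between 1118 and 1782 on chow and between 1.35 and 3.27 on MCD, while those of the other genes stay within the same order of magnitude or close to it.

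Srebf1 encodes SREBP-1, the insulin-responsive activator of the pathway. Its FPKM in WT mice on chow was 105.9, 103.1 and 134.3 in replicates 1 to 3, and on MCD 19.4, 31.2 and 28.1. Pctp-/- mice had 159.4, 113.7 and 106.8 on chow and 28.8, 23.2 and 38.5 on MCD. Every MCD value lay far below every chow value, and on each diet the genotypes overlapped. The log2 difference was -2.10 in WT (standard error 0.215, adjusted p = 8.34e-06 from limma) and -2.04 in Pctp-/- mice (adjusted p = 1.37e-05), and the mean on MCD was 22.9% and 23.8% of that on chow. Srebf1 overlaps Rai1 on the opposite strand and the miRNA genes Mir6921 and Mir6922 on its own, and whether the counting used strand is not given in the sources used here.

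Mlxipl encodes ChREBP, the glucose-responsive activator. In WT mice its FPKM was 160.3, 212.3 and 186.6 on chow and 69.0, 98.0 and 83.0 on MCD, with no overlap. Among Pctp-/- mice it was 67.5, 194.6 and 211.5 on chow and 95.1, 97.3 and 108.7 on MCD, so replicate 1 on chow lay below all MCD mice while the other chow mice lay above them. Mlxipl fell in WT mice by 1.16 on the log2 scale (standard error 0.328, adjusted p = 0.0097 from limma), to 44.7% of the chow mean. The difference in Pctp-/- mice was -0.49 (adjusted p = 0.237) with all libraries and -1.01 (adjusted p = 0.000247) without that replicate, so the lack of a call there rests on 1 mouse. The ratio of Mlxipl to Srebf1 within a library went up on MCD, from 1.65 ± 0.357 to 3.21 ± 0.307 in WT (SD, n = 3) and from 1.37 ± 0.831 to 3.44 ± 0.694 in Pctp-/- mice, with no overlap between diets in either genotype.

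Acly, ATP citrate lyase, supplies cytosolic acetyl-CoA. Its FPKM in WT mice was 71.5, 53.8 and 55.2 on chow and 59.4, 45.2 and 39.1 on MCD, and the ranges overlapped. The values in Pctp-/- mice were 121.3, 61.9 and 53.9 on chow against 40.0, 39.8 and 45.1 on MCD, all MCD values being lower. The log2 difference there was -0.82 (adjusted p = 0.0168 from limma), and -0.465 (adjusted p = 0.0397) without replicate 1 on chow, the highest Acly value of the 12. In WT mice the difference was -0.33 (adjusted p = 0.276). Me1, cytosolic malic enzyme, is a source of NADPH for the synthase. Me1 stood at 48.7, 40.9 and 46.7 FPKM in WT on chow and 31.9, 50.02 and 40.8 on MCD, which overlapped (log2 difference -0.17, adjusted p = 0.475 from limma). The Pctp-/- livers held Me1 at 55.2, 39.6 and 43.5 on chow and 24.2, 21.1 and 34.4 on MCD, without overlap. Me1 fell there by 0.79 (adjusted p = 0.00494 from limma), to 57.7% of the chow mean.

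In WT mice the carboxylases moved in opposite directions. Acaca encodes acetyl-CoA carboxylase 1, the cytosolic enzyme whose malonyl-CoA feeds the synthase, and Acacb encodes acetyl-CoA carboxylase 2, at the mitochondrial membrane, whose malonyl-CoA restrains fatty acid entry for oxidation. Acaca in WT mice was at 12.7, 9.70 and 7.77 FPKM on chow and 19.0, 14.3 and 13.4 on MCD, each MCD mouse being above every chow mouse. Acaca in Pctp-/- mice was at 10.5, 8.93 and 9.57 on chow and 11.4, 12.4 and 12.03 on MCD, again without overlap but closer together. Acaca rose in WT mice by 0.59 (standard error 0.159, adjusted p = 0.00687 from limma), or 0.48 above the median of all genes, while the difference of 0.28 in Pctp-/- mice did not pass (adjusted p = 0.161). Fitted on the 6 libraries of Pctp-/- mice alone, the same difference passed (adjusted p = 0.0401).

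Acacb in WT mice was at 16.6, 15.0 and 8.88 FPKM on chow and 7.76, 4.35 and 3.498 on MCD. The Pctp-/- mice had 25.4, 14.9 and 11.4 on chow and 4.15, 4.94 and 5.51 on MCD. All MCD values were below all chow values in both genotypes. Acacb differed by -1.24 in WT (standard error 0.304, adjusted p = 0.00407 from limma) and by -1.57 in Pctp-/- mice (adjusted p = 0.00111). Without replicate 1 on chow, the difference in Pctp-/- mice was -1.26 (adjusted p = 0.00363 from limma). The ratio of Acaca to Acacb within a library, which a scaling factor per library cannot change, went from 0.761 ± 0.115 to 3.19 ± 0.691 in WT and from 0.618 ± 0.216 to 2.48 ± 0.281 in Pctp-/- mice (SD, n = 3). Acacb was thus the higher carboxylase transcript in all 6 chow livers and Acaca in all 6 MCD livers. An exact permutation test gave p = 0.1 for this ratio in each genotype, the smallest that 3 mice against 3 allow. Acaca overlaps Gm37391 on its own strand and Gm11437 on the other, and Acacb overlaps Gm13784 on the other.

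Fasn, the multifunctional synthase, was at 68.8, 64.4 and 65.4 FPKM in WT mice on chow and at 32.0, 23.9 and 21.7 on MCD. Fasn in Pctp-/- mice was at 153.5, 75.3 and 68.8 on chow and at 16.8, 14.05 and 23.7 on MCD. The diets did not overlap in either genotype, and replicate 1 of the Pctp-/- chow mice had the highest value by a wide margin. The log2 difference of Fasn was -1.34 in WT (standard error 0.267, adjusted p = 0.00109 from limma), to 39.1% of the chow mean, and -2.32 in Pctp-/- mice (adjusted p = 2.6e-05), to 18.3%. Without that replicate the difference in Pctp-/- mice was -1.96 (adjusted p = 1.5e-05 from limma). The 6.83 ± 1.5 ratio of Fasn to Acaca in WT livers on chow came down to 1.66 ± 0.0321 on MCD (SD, n = 3), with no overlap.

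Elovl6 lengthens palmitate to stearate, the preferred substrate of SCD1. In WT mice Elovl6 was at 7.20, 6.87 and 6.05 FPKM on chow and 20.01, 11.2 and 10.4 on MCD, every MCD value being higher. Pctp-/- livers held it at 13.5, 7.71 and 11.5 on chow and 9.66, 6.91 and 9.89 on MCD, which overlapped. Elovl6 rose in WT mice by 0.89 (standard error 0.236, adjusted p = 0.0064 from limma), or 0.79 above the median of all genes, to 207% of the chow mean. In Pctp-/- mice the log2 difference was -0.26 (adjusted p = 0.379) and the mean on MCD was 81.0% of that on chow. Elovl6 overlaps Gm43072 on its own strand and Gm35986 on the other.

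Scd1 makes oleate and palmitoleate from the products of the synthase and the elongase. Scd1 in WT mice on chow was at 1771, 1118 and 1187 FPKM, and on MCD at 1.59, 1.54 and 2.01. Pctp-/- mice had 1782, 1237 and 1121 on chow and 2.22, 1.35 and 3.27 on MCD. Every chow liver held far more Scd1 transcript than any MCD liver, and within a diet the genotypes overlapped. The log2 difference of Scd1 was -8.94 in WT (standard error 0.233, adjusted p = 3.11e-10 from limma) and -8.73 in Pctp-/- mice (adjusted p = 2.77e-10). On the FPKM scale the chow mean was 792-fold the MCD mean in WT and 605-fold in Pctp-/- mice. Scd1 made up 55.4 to 74.3% of the summed FPKM of the 10 genes in WT and 63.7 to 69.4% in Pctp-/- mice on chow, but 0.374 to 0.523% and 0.408 to 0.699% on MCD. The summed FPKM of the 10 genes was 2170 ± 189 in WT mice on chow and 378 ± 36.4 on MCD (SD, n = 3).

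The desaturase paralogs of Scd1 lie beside it on chromosome 19. Scd2 was at 0.738 ± 0.316 FPKM (SD, n = 3) in WT on chow and 1.87 ± 0.455 on MCD, and at 0.990 ± 0.332 and 1.46 ± 0.1195 in Pctp-/- mice. Scd2 rose in WT mice by 0.73 (adjusted p = 0.00266 from limma), and its difference in Pctp-/- mice was 0.32 (adjusted p = 0.127). Scd1 exceeded Scd2 by 1980 ± 567-fold in WT on chow, whereas on MCD the ratio was 0.954 ± 0.256 (SD, n = 3), so the paralogs were at like levels. Scd3 did not exceed 0.1196 FPKM and Scd4 did not exceed 0.0318 FPKM in any library, under the minimum for testing. How the authors' counting shared reads between these close paralogs is not given, which matters most for the low values on MCD.

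Thrsp encodes Spot 14, a partner of the lipogenic enzymes that is induced by thyroid hormone and carbohydrate. Thrsp in WT mice was at 119.9, 395.0 and 413.6 FPKM on chow and 79.4, 131.8 and 142.1 on MCD. The Pctp-/- mice had 178.6, 137.8 and 122.9 on chow and 85.4, 109.8 and 226.4 on MCD. The diets overlapped in both genotypes, in WT because replicate 1 on chow was low. Thrsp fell in WT mice by 1.23 (standard error 0.452, adjusted p = 0.034 from limma), a call that was lost without replicate 2 (adjusted p = 0.13) or 3 (0.132) on chow and without replicate 1 (0.125) or 2 (0.0507) on MCD. In Pctp-/- mice the difference was -0.17 (adjusted p = 0.781). Mid1ip1, which encodes a Spot 14 relative that activates acetyl-CoA carboxylase, differed by -0.57 in WT (adjusted p = 0.0503) and fell by 0.71 in Pctp-/- mice (adjusted p = 0.0219 from limma).

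**Figure D2:**
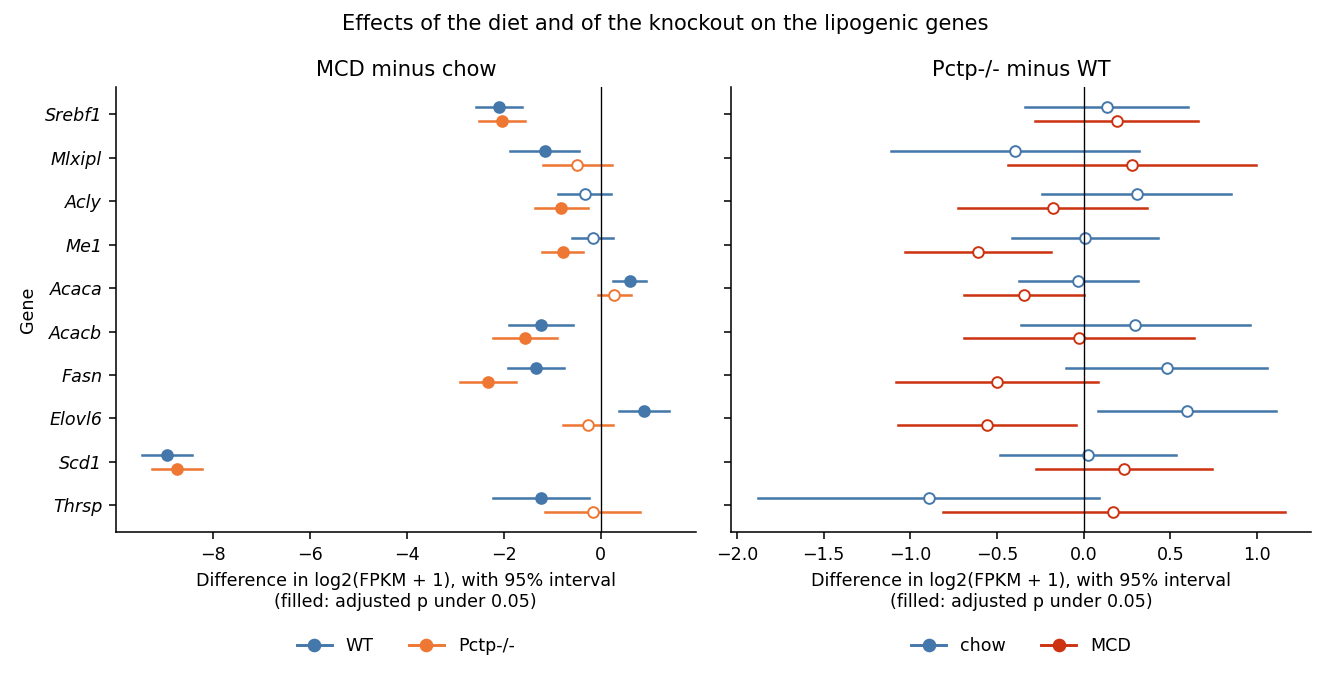
Differences in log2(FPKM + 1) between MCD and chow (left, by genotype) and between Pctp-/- and WT (right, by diet) for each gene on the y axis, with 95% intervals from limma. Filled points have an adjusted p under 0.05; the left panel has 8 filled points in WT and 6 in Pctp-/- mice, and the right panel has 0. The panels have different x scales.

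Ordered by mean FPKM within a group, the members ran in WT chow livers from Scd1 through Thrsp, Mlxipl, Srebf1, Fasn, Acly, Me1 and Acacb to Acaca and Elovl6. The ranges of Thrsp and Mlxipl, of Fasn and Acly, and of Acacb and Acaca overlapped, and those of the other neighbours did not. On MCD the WT order was Thrsp, Mlxipl, Acly, Me1, Srebf1, Fasn, Acaca, Elovl6, Acacb and Scd1. Acly and Me1, which supply acetyl-CoA and NADPH, thus passed Fasn and Srebf1, and Acacb and Scd1 stood last, separate from the rest and from each other. In Pctp-/- livers on MCD the last positions were the same, with Acaca, Elovl6, Acacb and Scd1 separate from each other.

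**Figure D3:**
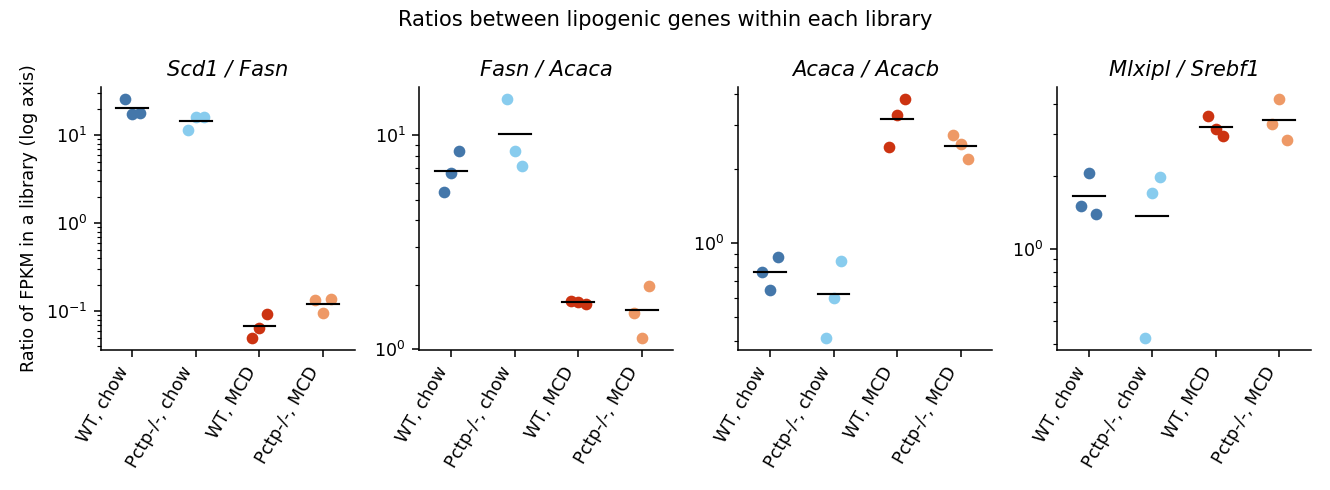
Ratios of FPKM between pairs of lipogenic genes within each library, on log axes, with 1 point per mouse and a line at the mean of the 3 mice of a group. In each panel the chow and MCD points of a genotype do not overlap; Scd1 to Fasn and Fasn to Acaca are lower on MCD, and Acaca to Acacb and Mlxipl to Srebf1 are higher.

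Loss of PC-TP changed no member past the threshold on either diet. On chow 0 of 10 members were called by limma with Benjamini-Hochberg adjustment, where 0.136% of all genes tested were. The unadjusted p was under 0.05 for 1 of 10 members and for 870 of the 12466 genes tested. On MCD 0 of 10 were called, where 0.818% of all genes were. There the unadjusted p was under 0.05 for 2 of 10 members and for 2026 of the 12466 genes. For Scd1 the log2 difference between Pctp-/- and WT was 0.02 on chow (95% interval -0.48 to 0.53) and 0.24 on MCD (-0.27 to 0.74). For Srebf1 the chow difference was 0.13 (-0.34 to 0.60) and the MCD difference 0.19 (-0.28 to 0.66). Intervals for Thrsp on chow, -1.88 to 0.09, and Mlxipl on chow, -1.11 to 0.32, were wide, and in each gene 1 chow mouse stood far from its group mates.

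Elovl6 was the member with values on separate sides on both diets. On chow each Pctp-/- mouse was above each WT mouse (log2 difference 0.60, adjusted p = 0.618 from limma), and on MCD each was below (log2 difference -0.56, adjusted p = 0.27). Without replicate 1 of the Pctp-/- mice, the chow difference was 0.439. Fasn values also did not overlap on chow, but the lowest Pctp-/- value of 68.78 and the highest WT value of 68.77 nearly touched, and the log2 difference of 0.48 (adjusted p = 0.797 from limma) was 0.12 without replicate 1. Acaca was lower in each Pctp-/- mouse than in each WT mouse on MCD (log2 difference -0.34, adjusted p = 0.307 from limma). Me1 had the smallest adjusted p of the members on MCD (log2 difference -0.61, adjusted p = 0.149 from limma), with 1 overlapping pair of values. The ratio of Scd1 to Fasn separated the genotypes on both diets in opposite directions, at 17.4 to 25.8 in WT and 11.6 to 16.4 in Pctp-/- mice on chow, and at 0.0498 to 0.0927 and 0.0962 to 0.138 on MCD (exact permutation p = 0.1 on each diet, the smallest possible). This ratio was 1 of 6 compared over 4 pairs of groups, 24 comparisons in all, and no p of 0.1 can pass an adjustment.

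An unequal response of the genotypes to the diet was tested as the MCD effect in Pctp-/- minus that in WT mice. By limma with Benjamini-Hochberg adjustment 0 of 10 members differed, where 0.0963% of all genes did. The unadjusted p was under 0.05 for 1884 of the 12466 genes tested and for 3 of the 10 members. These were Elovl6 (-1.15, standard error 0.333, unadjusted p = 0.00465, adjusted p = 0.148), Fasn (-0.98, unadjusted p = 0.0231, adjusted p = 0.246) and Me1 (-0.62, unadjusted p = 0.0427, adjusted p = 0.31). The diet difference of Fasn was more negative in Pctp-/- livers (-2.32) than in WT (-1.34), as was that of Me1 (-0.79 against -0.17). For Elovl6 the diet difference was -0.26 in Pctp-/- livers against a rise of 0.89 in WT. Without replicate 1 of the Pctp-/- mice on chow, the Pctp-/- minus WT values for Elovl6, Fasn and Me1 were -0.995, -0.62 and -0.483 (adjusted p = 0.145, 0.228 and 0.377 from limma). Calls made in WT mice and missed in Pctp-/- mice, or the reverse, are thus not shown to differ between the genotypes. For Scd1 the difference was 0.21 (95% interval -0.51 to 0.93) against falls of over 8 on the same scale.

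Single mice departed from their group in several members at once. Replicate 1 of the Pctp-/- mice on chow was above the mean of its group mates by 1.08 for Fasn, 1.06 for Acly and 0.91 for Acacb on the log2 scale, and below it by -1.57 for Mlxipl. Over all genes tested, its root mean square log2 difference from its mates was 0.391, the highest of the 12 libraries, which ranged from 0.223. Replicate 1 of the WT mice on chow was low in Thrsp (-1.75) and high in Scd1 (0.62), Acaca (0.50) and Acacb (0.49). Replicate 1 of the WT mice on MCD was high in Acacb (0.84) and Elovl6 (0.83), and replicate 3 of the Pctp-/- mice on MCD was high in Thrsp (1.22), Scd1 (0.63) and Fasn (0.59). Within the WT chow (0.323), Pctp-/- chow and WT MCD (0.34) groups, replicate 1 had the largest root mean square difference. In each of these it was above its mates in Acacb, Acly, Acaca, Elovl6 and Fasn and below them in Mlxipl. Acly deviated by 0.39, 1.06 and 0.49 and Mlxipl by -0.31, -1.57 and -0.38, in that order. On MCD, replicate 1 of the Pctp-/- mice (0.225) was below its mates in Acacb and Acly. Replicate numbers name different mice in each group, and the feeding state of each mouse is not known. The reason for the shared pattern was not tested.

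**Figure D4:**
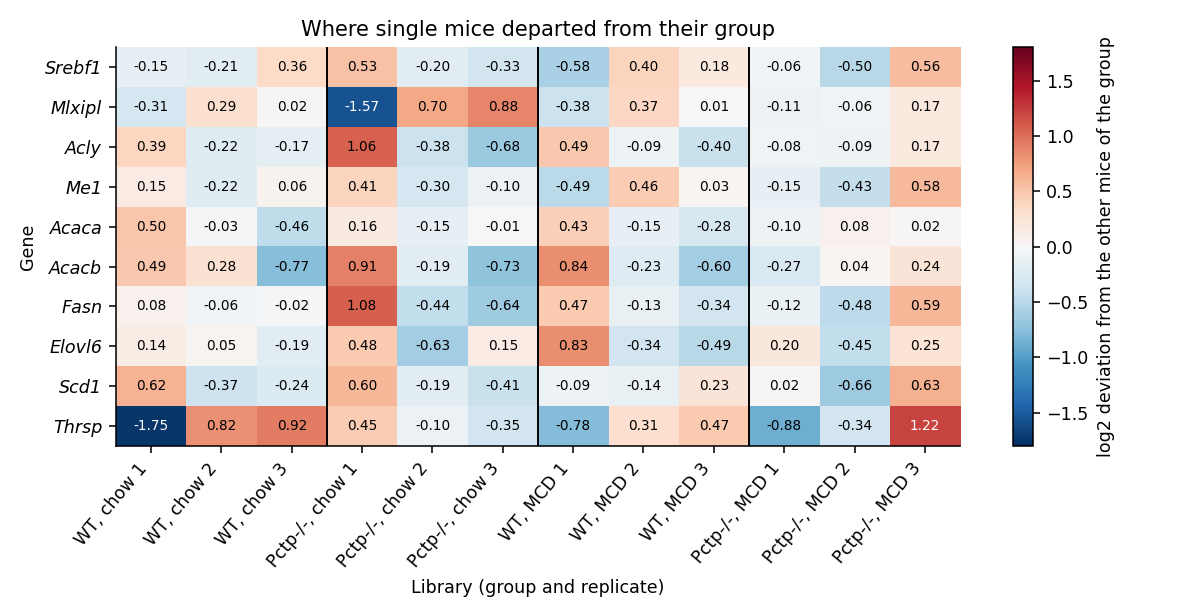
Difference in log2(FPKM + 1) between each mouse and the mean of the other mice of its group, by gene (y axis) and library (x axis), with red for higher, blue for lower and the value in each cell. The largest values are -1.75 for Thrsp in WT chow replicate 1 and -1.57 for Mlxipl in Pctp-/- chow replicate 1, the mouse with 1.08 for Fasn.

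Genes around the pathway were called in both directions on MCD, as were genes in general, of which 34.5% were higher and 22.5% lower in WT and 26.0% and 24.4% in Pctp-/- mice. Counts in lists this small that lie near those shares say nothing particular about the lists. Of 13 genes that supply substrate and NADPH, 5 rose and 4 fell in each genotype, with median log2 differences of 0.11 in WT and -0.14 in Pctp-/- mice against 0.11 and 0.04 over all genes. Pgd, of the NADPH-making pentose phosphate pathway, rose from 10.0 ± 0.862 to 39.2 ± 4.96 FPKM in WT and from 12.3 ± 2.99 to 24.8 ± 2.78 in Pctp-/- mice (SD, n = 3; log2 differences 1.86 and 0.97). Slc25a1, the mitochondrial citrate carrier that delivers the substrate of ATP citrate lyase, fell from 169.5 ± 4.24 to 73.6 ± 5.33 in WT and from 189.2 ± 10.8 to 65.7 ± 4.76 in Pctp-/- mice. Acss2, which makes acetyl-CoA from acetate, fell, with log2 differences of -1.18 and -1.496. Of 9 tested paralogs of the members, 4 rose and 3 fell in WT and 3 rose and 4 fell in Pctp-/- mice, with medians of -0.17 and -0.11. Elovl3, an elongase of longer saturated and monounsaturated chains, fell from 120.2 ± 39.8 to 8.89 ± 3.79 FPKM in WT and from 187.2 ± 27.8 to 7.87 ± 3.65 in Pctp-/- mice, opposite to Elovl6 in WT. Elovl1 rose by 1.06 in WT and 0.52 in Pctp-/- mice. Mlx, the obligate partner of ChREBP, rose by 0.85 and 0.46. It was the gene of these lists called for the knockout on MCD, where 0.818% of all genes were called. On that diet Mlx was lower in Pctp-/- mice (log2 difference -0.64, adjusted p = 0.0301 from limma).

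Control of malonyl-CoA and of SREBP-1 was measured with lists of 12 and 18 genes. In the malonyl-CoA list, 2 rose and 4 fell in WT and 3 rose and 4 fell in Pctp-/- mice, with median log2 differences of 0.0037 and -0.05. Mlycd, malonyl-CoA decarboxylase, which removes the product of the carboxylases, fell from 51.9 ± 3.07 to 14.3 ± 0.907 FPKM in WT and from 55.1 ± 7.69 to 12.7 ± 0.776 in Pctp-/- mice (SD, n = 3; log2 differences -1.79 and -2.03). Mcat, of mitochondrial fatty acid synthesis, fell, with log2 differences of -0.87 and -1.002. Trib3, a stress-induced pseudokinase, rose by 2.12 and 1.74. Among the genes of SREBP-1 processing and activation, 4 rose and 7 fell in WT and 2 rose and 8 fell in Pctp-/- mice, with a median of -0.21 in both. Scap, the escort protein without which SREBP-1 is not processed, fell from 58.1 ± 9.74 to 15.2 ± 0.933 FPKM in WT and from 60.3 ± 4.41 to 15.3 ± 1.43 in Pctp-/- mice. Lpin1 fell, with log2 differences of -1.95 and -1.09, as did Rxra, the partner of LXR, with -0.996 and -0.864. The log2 differences named here passed limma's test in both genotypes.

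Other target genes of the same factors were counted in the same way. Of 14 tested targets of SREBP-1c and LXR, 3 rose and 4 fell in WT and 3 rose and 3 fell in Pctp-/- mice, with median log2 differences of 0.12 and 0.01, close to the 0.11 and 0.04 of all genes. Ces1f fell, with log2 differences of -2.21 in WT and -2.25 in Pctp-/- mice, and Acsl3 rose by 1.69 and 1.02. Of 12 tested ChREBP targets, 3 rose and 1 fell in WT and 3 rose and 2 fell in Pctp-/- mice (medians -0.02 and 0.20). Fgf21, a fasting and stress hormone that is also a ChREBP target, rose from 3.05 ± 0.924 to 317.9 ± 146 FPKM in WT and from 4.63 ± 2.98 to 114.0 ± 27.1 in Pctp-/- mice (SD, n = 3). G6pc, glucose-6-phosphatase, fell, with differences of -2.90 and -3.32. Of 11 tested genes of the fed and fasted states, which include Fgf21 and G6pc, 3 rose and 4 fell in each genotype (medians -0.19 and -0.63), and Irs2 fell, with differences of -1.90 and -1.46. In none of these lists was a gene called for the knockout on chow or for the difference of the diet responses. Over all genes tested those shares were 0.136% and 0.0963%, so the lack of calls says nothing particular about the lists.

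**Figure D5:**
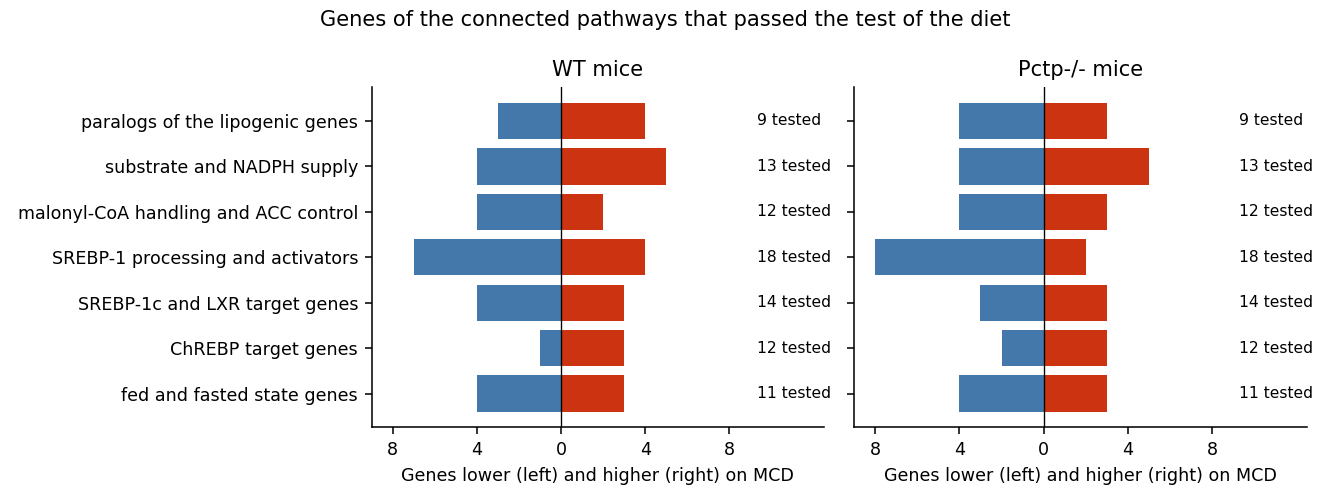
Genes of 7 lists around the pathway that passed limma's test of MCD against chow, with bars to the left for lower and to the right for higher genes and the number tested beside each. Both directions appear in each list and genotype, with 7 lower and 4 higher for SREBP-1 processing in WT mice and 8 lower and 2 higher in Pctp-/- mice.

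Markers of other liver cells were also compared between the diets. Over all genes tested, 34.5% were called higher and 22.5% lower on MCD in WT, and 26.0% and 24.4% in Pctp-/- mice. Marker counts near those shares say nothing particular about a cell type. Of 8 macrophage and Kupffer cell markers, 7 were higher and 0 lower on MCD in WT and 3 higher and 0 lower in Pctp-/- mice, and in WT mice their FPKM summed to 74.0 to 123.9 on chow against 276.8 to 540.3 on MCD, and in Pctp-/- mice to 64.9 to 174.7 against 291.0 to 359.7. Of 8 stellate cell markers, 4 were higher in WT and 3 in Pctp-/- mice and 0 were lower, and in WT mice these summed to between 36.6 and 64.8 FPKM on chow against between 150.1 and 216.3 on MCD. Of 7 hepatocyte markers tested, 3 were higher and 3 lower in WT, and 3 higher and 2 lower in Pctp-/- mice. Their median log2 differences were -0.03 and 0.04. They summed to 45030 to 50650 FPKM on chow and 61860 to 69860 on MCD in WT, and to 48270 to 50210 and 76230 to 83600 in Pctp-/- mice. Within these sums Alb averaged 27790 on chow and 43900 on MCD in WT, and 28260 and 57220 in Pctp-/- mice. In whole liver, fewer cells of a type and less RNA per cell cannot be told apart, and the part of these markers in the members' differences was not tested. Of 4 cholangiocyte, 6 endothelial and 2 T and B cell markers tested, 1, 2 and 0 were higher on MCD in WT mice, with 0 lower. In Pctp-/- mice 0 of these were higher and 1 cholangiocyte marker was lower.

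The genes whose log2 values were most like those of Scd1 over the 12 libraries were Aldh7a1 (Pearson r = 0.998), Gaa (0.997), Mecr (0.995), Mpnd (0.995) and Lrit1 (0.995). The 12 libraries fall into a chow and an MCD cluster for Scd1, and the points of a cluster share the diet. After the group means were removed, the genes most like Scd1 were Vcp (r = 0.938), Pygl (0.937), Aph1a (0.920), Eepd1 (0.920) and Psmd2 (0.917), and none of the 10 members was among them. These are descriptions chosen from all genes tested, over mice that share a diet and its library measures.

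Positions are from GENCODE M21 of GRCm38. Scd1 (ENSMUSG00000037071) spans chr19:44394455-44407879 on the minus strand and Fasn (ENSMUSG00000025153) chr11:120805846-120824547 on the minus strand. Acaca, Acly, Srebf1 and Fasn lie on chromosome 11 with Pctp, at 5.581, 10.473, 29.76 and 30.803 Mb from it. Of these 4, 0 were called for the knockout on either diet, where 0.136% of all genes were on chow and 0.818% on MCD. With shares this low, 0 of 4 says nothing about their position near Pctp.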

How the data were processed

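Liver RNA of 12 mice was sequenced, 3 in each of 4 groups of genotype and diet, and each library was placed in its group by the submitters' labels. The authors deposited FPKM values for 35275 genes, with 1 column per mouse, and a second deposited table of read totals and quality percentages, which was used for depth and to compare the libraries. The submitters' processing notes name the genome build mm10, while the aligner, the counter and the annotation are not given in the sources used here. FPKM are not counts, so log2(FPKM + 1) was modelled with limma (3.58.1, under R 4.3.3), giving each group its own mean and using a mean-variance trend, in place of the Wald test the study names. The 12466 genes averaging 0.5 FPKM or more were tested in 5 contrasts with two-sided tests and Benjamini-Hochberg adjustment, and called at an adjusted p under 0.05. The script was tested on simulated data with known changes. Ratios within a library were compared by exact permutation tests over mice, two-sided. Depth ran from 30486576 to 55179468 uniquely mapped reads per library, and no counting interval can be given without counts per gene.

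The members, lists and tests were chosen with earlier results of these data known. Beside the members, Pctp and the paralogs of Scd1 and Thrsp, the text names from each list the 3 genes with the largest change in WT mice among those called there, any list gene called for the knockout or the difference, and the 5 genes most like Scd1 by each measure. Some genes that this rule names are not reported here. Alternatives were another pseudocount, filter, scaling, choice of libraries, replicate block, variance model and minimum fold change, and leaving out each library. Promoters came from RefSeq (GRCm38.p6), for 9 of 10 members, and positions from GENCODE M21. The labels do not say how mice were housed or paired, so the p-values measure the spread between these 12 mice. Figures were drawn with matplotlib.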

Additional observations from a re-analysis of the deposited data

How the results depend on the processing

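Of the 14 member differences past the threshold, each was recomputed under 24 alternatives; 327 of 336 values kept their direction and call, 9 lost the call and 0 turned. The losses were 4 under a minimum absolute log2 fold change of 1 (Acaca and Elovl6 in WT, Acly and Me1 in Pctp-/- mice), and 5 for Thrsp in WT mice. Under that minimum 0 members were higher in WT mice. Fitting only the Pctp-/- libraries made 1 member, Acaca, higher on MCD. Without replicate 1 on chow, Mlxipl passed in Pctp-/- mice.

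Of 854 values for the other 36 differences, 26 turned sign, none past the threshold. With a library left out, the diet difference of Thrsp in Pctp-/- mice ran from -0.57 to 0.12. The knockout on chow ran from -0.17 to 0.23 for Scd1, -0.18 to 0.13 for Acaca, -0.00774 to 0.54 for Acacb, -0.0456 to 0.53 for Acly, -0.13 to 0.11 for Me1, -0.0439 to 0.25 for Srebf1 and -0.69 to 0.13 for Mlxipl. On MCD it ran from -0.23 to 0.25 for Acacb, -0.23 to 0.46 for Thrsp and -0.00451 to 0.36 for Srebf1, and the difference of diet effects for Srebf1 from -0.14 to 0.23. Scaling turned Me1 on chow (-0.0365 by quantile normalization, -0.00837 rescaled to a common sum) and Acacb on MCD (0.0711 by quantile normalization and 0.0657 by median-of-ratios). The causes were not tested.

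Replicate numbers are shared between groups, but name different mice. For that reason the number was left out of the main fit. Same-numbered mice deviated with r between -0.0972 and 0.225, and other pairs with -0.231 to 0.16. Among WT chow, Pctp-/- chow and WT MCD mice, each same-numbered pair had a positive r, from 0.0409 to 0.225. Same-numbered pairs with Pctp-/- MCD mice ran from -0.0972 to 0.136. Whether same-numbered libraries shared a handling step was not tested. With the number as a block, 6 members were lower and 2 higher in WT, and 6 lower and 0 higher in Pctp-/- mice. Over all genes the block gave 2845 lower and 4357 higher in WT, and 3079 lower and 3351 higher in Pctp-/- mice. The block also gave 32 calls for the knockout on chow against 17, and 59 for the difference against 12. For the difference, the adjusted p of Elovl6 from limma was 0.0813 with the block and 0.148 without it.

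Over all genes, the counts also moved by over 1.5 times. A minimum log2 fold change of 1 left 988 higher and 789 lower in WT and 585 and 758 in Pctp-/- mice, and a mean FPKM of at least 5 left 2627 and 1821, and 2021 and 2026. That higher mean leaves fewer genes to test, so its counts do not show a change in the share called. Calls for the knockout ranged from 7 to 34 genes (chow) and from 17 to 173 (MCD), and for the difference from 0 to 61, with 0 members called in each. FPKM carry no counts, so precision at low values, such as Scd1 on MCD, is limited, and 3 mice a group leave wide intervals.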
